A study of Sus scrofa with 6 samples.

Results

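The genes described here are the subunits and regulators of NF-kappaB, a set of 10 genes found by symbol in a table of 13288 genes: NFKB1, NFKB2, RELA, RELB, NFKBIA, NFKBIB, NFKBIZ, TRAF6, TNFAIP3 and IKBKB. Each of the 10 had a row of its own, so no member was absent. RNA was sequenced from ventricular tissue of male Tibetan minipigs with descending aortic constriction (DAC, n = 3) and of minipigs that had the same opening of the chest without a constriction (sham, n = 3). Tissue was taken at week 12 after surgery, and the age of the animals is not given in the sources used here. Each library came from 1 minipig, and the minipigs are named by the numbers of their labels, 1 to 3 for sham and 4 to 6 for DAC. The labels do not say which ventricle was taken, and a bulk library mixes muscle cells, fibroblasts, vessels and leukocytes.

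NF-kappaB is a family of transcription factors that act as pairs of Rel proteins. In resting cells, IkappaB proteins hold these pairs in the cytoplasm. Signals from receptors for tumor necrosis factor, interleukin 1 and microbial products pass through adaptors such as TRAF6 to the IkappaB kinase, which marks IkappaB for destruction and frees NF-kappaB to enter the nucleus. Several of its target genes, among them NFKBIA and TNFAIP3, encode inhibitors that close a negative feedback loop. In the heart, this pathway is known for its role in inflammation and remodeling under stress. The study measured phosphorylated IkappaBα and p65, IL6 and IL-1β as proteins and reported each of them as raised in DAC myocardium. The question taken up here is whether the transcripts of the pathway differed between sham and DAC myocardium. Transcript levels do not measure phosphorylation or movement into the nucleus.

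Values are FPKM, which relates the fragments of a gene to its transcript length and to all mapped fragments, so that genes can be compared where the transcript length used is right. A fold change is the difference between the group means of log2(FPKM + 1), which understates changes of low genes. Genes with an unadjusted P under 0.05 from limma, the threshold of the study, are called differentially expressed (DEGs), and the Benjamini-Hochberg method adjusted P over the 11029 genes tested. How many reads stand behind a value is unknown, so the error is the spread between minipigs alone. With 3 minipigs in each group, the smallest P of a two-sided exact permutation test is 0.1. The summed FPKM of a library was between 281377 and 308771, highest in DAC replicate 5. The mitochondrially encoded genes held 24.0%, 25.1% and 25.3% of the sum in sham replicates 1, 2 and 3. They held 27.2%, 32.8% and 27.1% in DAC replicates 4, 5 and 6, so each DAC library was above each sham library.

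TRAF6, an adaptor that relays signals to the IkappaB kinase, and TNFAIP3, which encodes the inhibitory protein A20, were upregulated in the DAC myocardium, TRAF6 in each of the 14 alternatives tried and TNFAIP3 in 7 of 13. None of the 10 members was a downregulated DEG. The IkappaBα gene NFKBIA was at lower FPKM in 2 of the 3 DAC minipigs and at the sham level in the third. The transcripts of the subunits NFKB1, NFKB2 and RELB had nearly equal means in both groups. All 10 members passed the filter of at least 1 FPKM in at least 3 samples. By limma, 2 of the 10 were DEGs, and 8.51% of all genes tested were DEGs. In the upward direction these were 2 of 10, beside 3.25% of all genes, and in the downward direction 0 of 10, beside 5.27%. The DAC and sham values did not overlap in 4 of the 10 members, beside 14.9% of all genes: in 2 of the 10 the DAC values were higher, beside 6.01% of all genes, and in 2 they were lower, beside 8.91%. No member reached an adjusted P under 0.05, and the smallest was 0.50. Over all genes tested limma also gave 0 with an adjusted P under 0.05, while 939 had an unadjusted P under 0.05. The median log2 fold change of the members was -0.00094, with 5 higher and 5 lower means in the DAC group, and that of all genes tested was -0.016. In such bulk samples, fewer cells of a type and less RNA per cell cannot be told apart.

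**Figure D1:**
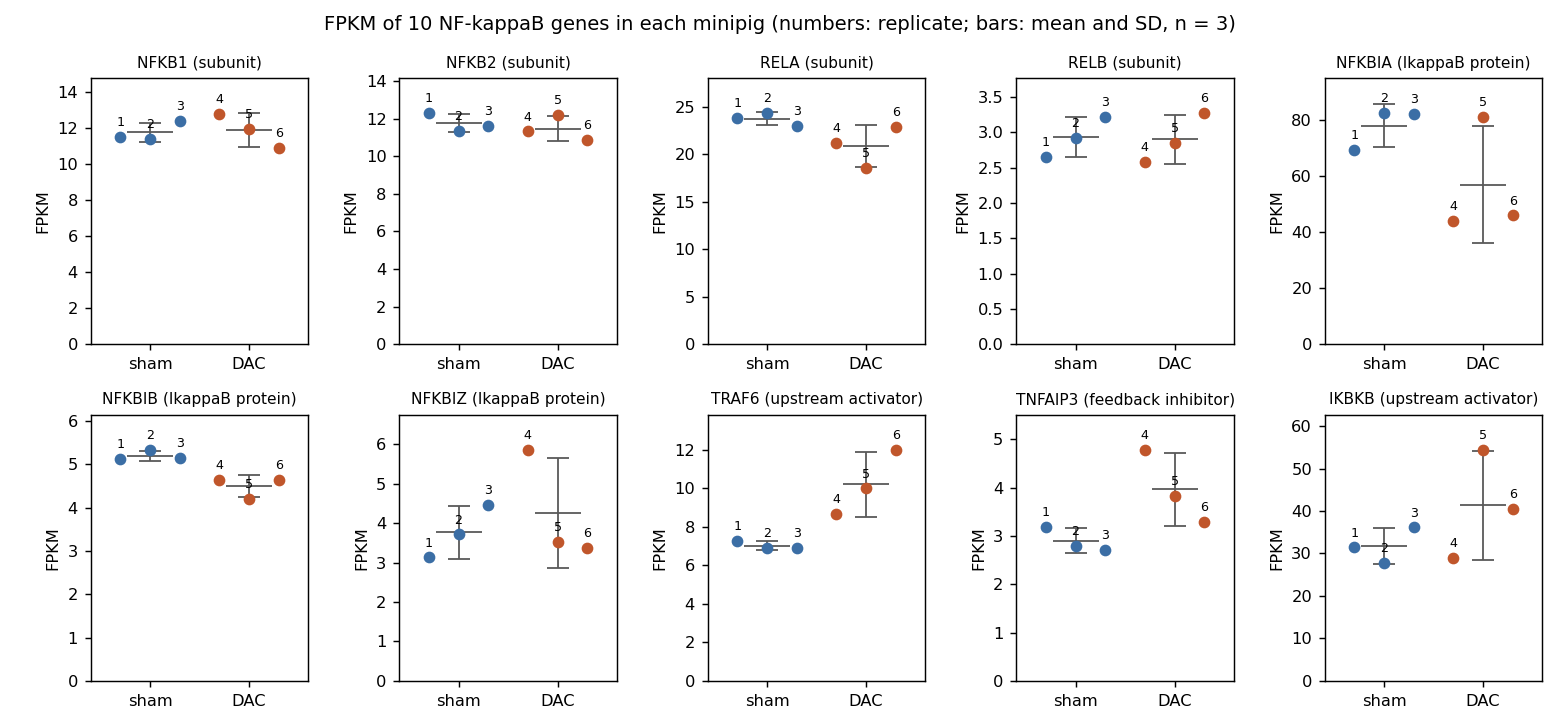
FPKM (vertical axes, starting at 0) of each of the 10 genes in the 3 sham minipigs (blue) and the 3 DAC minipigs (orange), with the replicate number above each point and the mean and SD of each group in gray. The DAC points lie above the sham points for TRAF6 and TNFAIP3 and below them for RELA and NFKBIB, while DAC replicate 5 stands at the sham level for NFKBIA and above the other minipigs for IKBKB.

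The cell types of the samples were checked with marker lists. Over all genes tested, 8.51% were DEGs, 3.25% upregulated and 5.27% downregulated. Of the tested markers, 14.3% were DEGs for cardiomyocytes, 14.3% for smooth muscle cells and pericytes, and 10% for leukocytes. The share was 50% for fibroblasts and 50% for endothelial cells. Of 10 cardiomyocyte markers 7 were analysed, led by TNNT2 and MYL2, with a summed level between 12763 and 13765 FPKM in the sham group and between 12337 and 15226 FPKM in the DAC group. One of the 7, RYR2, was a downregulated DEG (log2 fold change -0.41) and is named after its values were seen. Of 10 fibroblast markers, led by COL3A1 and DCN, 5 were upregulated DEGs: COL1A1, COL1A2, COL3A1, LUM and POSTN. The other 5 were no DEGs, with log2 fold changes of -0.012 for DCN, -0.022 for TCF21, 0.080 for DPT, 0.20 for FBLN1 and 0.24 for PDGFRA. Those that do not lead the list are named after their values were seen. The summed level of the 10 was between 558 and 648 FPKM in the sham group and between 784 and 881 FPKM in the DAC group. COL1A1, COL1A2 and COL3A1 hold a large part of this sum. Their means were 94.0, 73.3 and 173 FPKM in the sham group and 165, 110 and 238 FPKM in the DAC group. DCN, another large part, had means of 150 and 156 FPKM. Of 10 endothelial markers, led by VWF and CDH5, 2 were upregulated and 3 downregulated DEGs, and the summed levels overlapped, 155 to 220 FPKM and 147 to 201 FPKM. The 7 smooth muscle and pericyte markers, led by RGS5 and TAGLN, summed to between 152 and 185 FPKM in the sham group and between 173 and 202 FPKM in the DAC group, with 1 upregulated DEG. Of 16 leukocyte markers 12 were in the table, led by CSF1R and C1QB, and 10 were tested, with 1 downregulated DEG, CD163. The 12 had summed levels of 85.1 to 98.9 FPKM in the sham group and 73.1 to 114 FPKM in the DAC group. The T cell markers CD3E and CD4 were below 1 FPKM in each minipig. Among 5 adipocyte markers FABP4 alone was tested and was no DEG. The part of these cell types in the values of TRAF6, TNFAIP3 and the other members was not tested.

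TRAF6 (ENSSSCG00000038082, chromosome 2 from 24602783 to 24626072) is a ubiquitin ligase that couples interleukin 1 receptors and Toll-like receptors to the kinases of the pathway. It was at 7.28, 6.90 and 6.89 FPKM in sham replicates 1, 2 and 3, and at 8.65, 9.99 and 11.998 FPKM in DAC replicates 4, 5 and 6. The sham minipigs were close to each other, and the lowest DAC minipig was above the highest sham minipig. The mean was 7.02 ± 0.223 FPKM in the sham minipigs (SD, n = 3) and 10.2 ± 1.68 FPKM in the DAC minipigs (SD, n = 3). The log2 fold change was 0.47 with a standard error of 0.13 and a 95% interval from 0.16 to 0.78 (adjusted P = 0.50 from limma). TRAF6 was a DEG in each of the 14 alternatives tried, with a log2 fold change from 0.36 to 0.58 and an adjusted P from 0.447 to 0.870.

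IKBKB (ENSSSCG00000007030, chromosome 17 from 11289690 to 11348553) encodes the catalytic subunit IKKβ of the IkappaB kinase. It was at 31.4, 27.8 and 36.1 FPKM in sham replicates 1, 2 and 3. In DAC replicates 4, 5 and 6 it was at 28.9, 54.4 and 40.6 FPKM. DAC replicate 4 lay within the sham range and the other two above it, so the groups overlapped. For IKBKB the log2 fold change was 0.33 with a 95% interval from -0.20 to 0.86 (adjusted P = 0.701 from limma). It was 0.11 without DAC replicate 5, the library with the largest mitochondrial share, and 0.56 without DAC replicate 4, where IKBKB passed the DEG threshold (adjusted P = 0.628 from limma, with a range from 0.628 to 0.939 over the alternatives). With the mitochondrially encoded genes left out and the rest rescaled, the log2 fold change of IKBKB was 0.37 (adjusted P = 0.678 from limma). The part of that share in the IKBKB value of DAC replicate 5 was not tested by itself.

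Among the subunits, RELA (ENSSSCG00000012981, chromosome 2 from 6593969 to 6603471), which encodes p65, the main transactivating subunit, was at 23.9, 24.3 and 23.0 FPKM in sham replicates 1, 2 and 3. It was at 21.2, 18.5 and 22.9 FPKM in DAC replicates 4, 5 and 6. The DAC values were below the sham values, although DAC replicate 6 and sham replicate 3 were nearly equal. RELA was no DEG, with a log2 fold change of -0.18 and a 95% interval from -0.44 to 0.079 (adjusted P = 0.663 from limma). Without DAC replicate 5 the log2 fold change of RELA was -0.10.

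The other three subunit genes had intervals on both sides of 0. NFKB1 (ENSSSCG00000030957, chromosome 8 from 118390637 to 118506691), which encodes p105 and its product p50, was at 11.5, 11.4 and 12.4 FPKM in sham replicates 1, 2 and 3. Its values in DAC replicates 4, 5 and 6 were 12.8, 11.95 and 10.9 FPKM, spread around those of the sham group. NFKB1 had a log2 fold change of 0.011, with a 95% interval from -0.23 to 0.26. NFKB2 (ENSSSCG00000010580, chromosome 14 from 113406004 to 113414173), which encodes p100 and p52 of the noncanonical branch, was at 12.3, 11.4 and 11.6 FPKM in sham replicates 1, 2 and 3 and at 11.3, 12.2 and 10.9 FPKM in DAC replicates 4, 5 and 6. Its log2 fold change was -0.035, with a 95% interval from -0.27 to 0.20, and the groups overlapped. RELB (ENSSSCG00000038879, chromosome 6 from 51444636 to 51480320), the partner of p52, was at 2.66, 2.92 and 3.22 FPKM in sham replicates 1, 2 and 3 and at 2.58, 2.85 and 3.27 FPKM in DAC replicates 4, 5 and 6. The ranges of RELB were almost the same, with a log2 fold change of -0.013 and a 95% interval from -0.29 to 0.27. The direction of NFKB1, NFKB2 and RELB changed with the scaling or with the library left out, so no direction is given for them.

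NFKBIA (ENSSSCG00000001952, chromosome 7 from 64508016 to 64558057) encodes IkappaBα, which retains RELA pairs in the cytoplasm and is itself induced by NF-kappaB. It was at 69.3, 82.6 and 82.4 FPKM in sham replicates 1, 2 and 3. In DAC replicates 4, 5 and 6 it was at 44.0, 81.2 and 46.0 FPKM. DAC replicates 4 and 6 were below each sham minipig, and DAC replicate 5 lay among them. The mean was 78.1 ± 7.62 FPKM in the sham minipigs (SD, n = 3) and 57.1 ± 20.9 FPKM in the DAC minipigs (SD, n = 3). NFKBIA had the log2 fold change farthest from 0 among the 10 members, -0.50 with a standard error of 0.24, but its 95% interval reached from -1.05 to 0.056 (adjusted P = 0.596 from limma). It was -0.78 without DAC replicate 5, where NFKBIA passed the DEG threshold (adjusted P = 0.321 from limma, with a range from 0.321 to 0.896 over the alternatives), and -0.34 without DAC replicate 4. The row of NFKBIA spans 50042 bases, against 2636 for the gene of that symbol in RefSeq on Sscrofa11.1, and the transcript length behind its FPKM is not given in the sources used here.

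NFKBIB (ENSSSCG00000026904, chromosome 6 from 47703636 to 47712664), which encodes the second cytoplasmic inhibitor IkappaBβ, was at 5.12, 5.33 and 5.14 FPKM in sham replicates 1, 2 and 3. It was at 4.63, 4.19 and 4.64 FPKM in DAC replicates 4, 5 and 6. Each DAC minipig was below each sham minipig, but the difference was small. For NFKBIB the log2 fold change was -0.18 with a standard error of 0.097 and a 95% interval from -0.40 to 0.052 (adjusted P = 0.645 from limma). NFKBIB passed the DEG threshold when the variance of each gene was estimated on its own (adjusted P = 0.551, with a range from 0.551 to 0.919 over the alternatives). Its position overlaps that of CCER2 on the opposite strand, and whether reads were counted by strand is not given in the sources used here.

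NFKBIZ (ENSSSCG00000011951, chromosome 13 from 157261418 to 157294478) encodes IkappaBζ, a nuclear member of the family that binds p50 at a subset of target genes. It was at 3.13, 3.71 and 4.45 FPKM in sham replicates 1, 2 and 3 and at 5.86, 3.53 and 3.36 FPKM in DAC replicates 4, 5 and 6. DAC replicate 4 was above the other 5 minipigs, and DAC replicates 5 and 6 were inside the sham range. For NFKBIZ the log2 fold change was 0.12 with a 95% interval from -0.36 to 0.59, and it was -0.091 without DAC replicate 4.

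TNFAIP3 (ENSSSCG00000004154, chromosome 1 from 26473938 to 26489822) encodes A20, a ubiquitin-editing enzyme that acts on TRAF6 and other adaptors and ends the signal. It was at 3.19, 2.79 and 2.71 FPKM in sham replicates 1, 2 and 3. In DAC replicates 4, 5 and 6 it was at 4.78, 3.83 and 3.29 FPKM. The groups did not overlap, and DAC replicate 6 was only slightly above sham replicate 1. The mean was 2.90 ± 0.260 FPKM in the sham minipigs (SD, n = 3) and 3.97 ± 0.757 FPKM in the DAC minipigs (SD, n = 3). For TNFAIP3 the log2 fold change was 0.34 with a standard error of 0.14 and a 95% interval from 0.014 to 0.67 (adjusted P = 0.584 from limma). TNFAIP3 kept its direction in the 13 alternatives in which it was tested but passed the DEG threshold in 7 of them. It was no DEG without sham replicate 2 (log2 fold change 0.32), sham replicate 3 (0.31), DAC replicate 4 (0.23) or DAC replicate 5 (0.35), nor with sample weights or the variance of each gene on its own. With these libraries left out, the adjusted P was between 0.598 and 0.843 (0.495 to 0.896 over all alternatives). DAC replicate 6 had the highest TRAF6 and the lowest TNFAIP3 of the DAC group, and DAC replicate 4 the reverse.

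**Figure D2:**
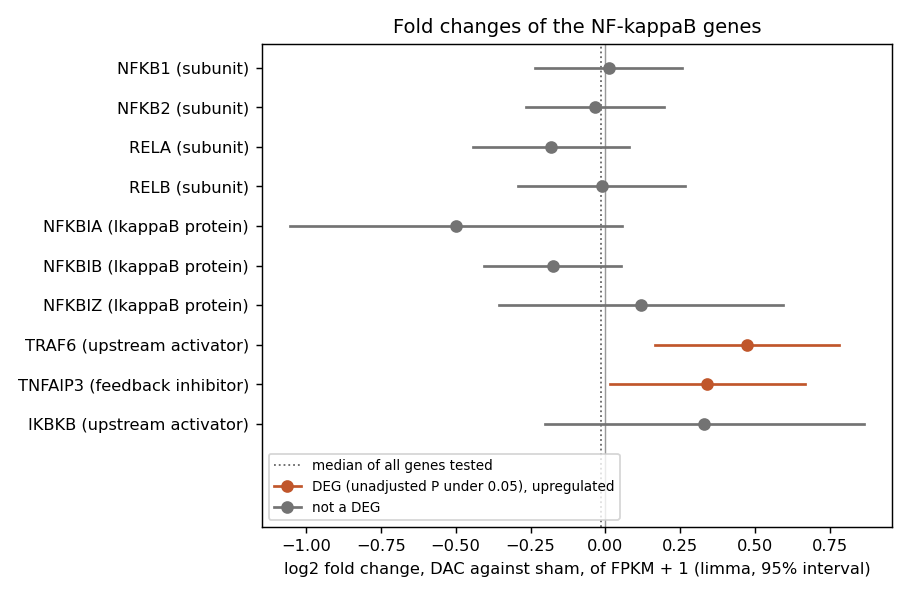
Log2 fold change of DAC against sham on the scale of FPKM + 1 (horizontal axis) for each of the 10 genes, with limma's 95% interval as a line. The intervals of TRAF6, from 0.16 to 0.78, and of TNFAIP3, from 0.014 to 0.67, lie above 0, and those of the other 8 genes hold 0.

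The levels of the 10 transcripts, as mean FPKM over the 6 minipigs, differed by 23.2-fold. NFKBIA was the most abundant with 67.6 FPKM, higher than 95.5% of the genes tested, and IKBKB came next with 36.5 FPKM. The place of NFKBIA in this order depends on a transcript length that is not given in the sources used here. Their ranges over the minipigs overlapped. RELA followed with 22.3 FPKM, and its range touched neither that of IKBKB above it nor that of NFKB1 below it. NFKB1 with 11.8 FPKM, NFKB2 with 11.6 FPKM and TRAF6 with 8.62 FPKM had ranges that overlapped with their neighbors in this order. NFKBIB with 4.84, NFKBIZ with 4.01, TNFAIP3 with 3.43 and RELB with 2.92 FPKM formed the low end, also with overlapping ranges and separate from TRAF6.

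The minipigs of the DAC group differed more among themselves than those of the sham group. The coefficient of variation of FPKM was larger in the DAC group for each of the 10 members, and for 58.6% of all genes tested. For NFKBIA it was 9.76% in the sham group and 36.6% in the DAC group, and for IKBKB it was 13.2% and 30.9%. TRAF6 had 3.17% and 16.5%, and NFKB2 had 4.06% and 5.73%. With 3 minipigs per group, a single coefficient is imprecise, and the members share the same libraries. The deviations by minipig were not the same for the members. NFKBIA was farthest from the sham mean in DAC replicates 4 and 6, TRAF6 in DAC replicate 6, and IKBKB and RELA in DAC replicate 5. TNFAIP3 and NFKBIZ were farthest from it in DAC replicate 4.

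**Figure D3:**
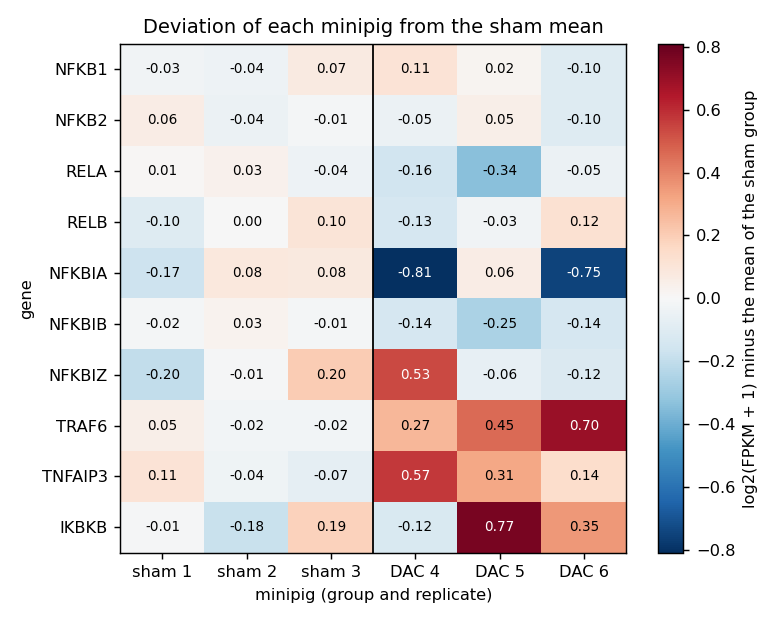
Each cell gives the log2(FPKM + 1) of 1 gene (row) in 1 minipig (column) minus the mean of the sham group, from blue (lower) to red (higher). The strongest deviations are those of NFKBIA, -0.81 in DAC replicate 4 and -0.75 in DAC replicate 6, and of IKBKB, 0.77 in DAC replicate 5.

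Of 14 further genes for subunits, IkappaB proteins and kinases, 12 were tested. The number of DEGs among them was 1, upregulated, which is 8.33% beside 8.51% of all genes, and -0.014 was the median log2 fold change of the 12. The DEG was MAP3K14, the kinase NIK that starts the noncanonical branch toward NFKB2. MAP3K14 was at 3.60, 3.30 and 3.21 FPKM in sham replicates 1, 2 and 3 and at 5.17, 4.24 and 4.33 FPKM in DAC replicates 4, 5 and 6. The groups of MAP3K14 did not overlap, with a log2 fold change of 0.35 and a standard error of 0.11 (adjusted P = 0.522 from limma). Without sham replicate 3 it was 0.32 and MAP3K14 lost the call. REL, the fifth subunit of the family, had the next smallest P. It was at 1.83 ± 0.0797 FPKM in the sham minipigs (SD, n = 3) and 2.35 ± 0.198 FPKM in the DAC minipigs (SD, n = 3) without overlap, but it did not pass the DEG threshold (log2 fold change 0.24, 95% interval from -0.0063 to 0.49). CHUK, the catalytic partner IKKα of IKBKB, was at 10.1, 9.64 and 11.1 FPKM in sham replicates 1, 2 and 3 and at 8.68, 9.08 and 8.49 FPKM in DAC replicates 4, 5 and 6, and was named after its values were seen. Each DAC minipig was below each sham minipig for CHUK, but it was no DEG, with a 95% interval from -0.44 to 0.028.

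Of 40 adaptors and ubiquitin regulators, 35 were tested, and 7 were DEGs, 2 upregulated and 5 downregulated. This is 20% of those tested, beside 8.51% of all genes, and the median log2 fold change was -0.029. Of the 5 downregulated genes, TNIP2, TNIP1 and TOLLIP encode inhibitors of the pathway, and TRAF2 and IRAK2 relay signals from its receptors. TNIP2, which encodes a partner of A20, was at 3.52, 2.29 and 2.88 FPKM in sham replicates 1, 2 and 3 and at 1.68, 1.28 and 1.55 FPKM in DAC replicates 4, 5 and 6. The DAC values of TNIP2 were below those of each sham minipig, and the log2 fold change was -0.63 with a standard error of 0.15 (limma, adjusted P = 0.460). TRAF2, the adaptor of tumor necrosis factor receptors, was at 6.46 ± 0.625 FPKM in the sham minipigs (SD, n = 3) and 4.67 ± 0.120 FPKM in the DAC minipigs (SD, n = 3), a log2 fold change of -0.39. Its position overlaps 2 other genes of the table, SSNA1 and AGPAT2.

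TOLLIP, an inhibitor of interleukin 1 receptor and Toll-like receptor signals, was at 58.1 ± 11.0 FPKM in the sham minipigs (SD, n = 3) and 39.7 ± 6.34 FPKM in the DAC minipigs (SD, n = 3) without overlap. Its log2 fold change was -0.53, and it was no DEG without sham replicate 1 (-0.39) or DAC replicate 5 (-0.42), nor with the variance of each gene on its own. IRAK2, a kinase that acts with TRAF6 below these receptors, was at 3.47 ± 0.812 FPKM (SD, n = 3) and 2.25 ± 0.558 FPKM (SD, n = 3), with overlap, and a log2 fold change of -0.46 that passed the threshold in 7 of the 13 alternatives. TNIP1, another partner of A20 and itself a target gene of NF-kappaB, was at 39.1 ± 3.02 FPKM in the sham minipigs (SD, n = 3) and 32.2 ± 3.14 FPKM in the DAC minipigs (SD, n = 3). Its log2 fold change was -0.27 with an interval that ended just below 0 (-0.0014), and it passed the threshold in 4 of 14 alternatives. Among the upregulated adaptors, TANK, which binds TRAF proteins, was at 1.54 ± 0.0510 FPKM in the sham minipigs (SD, n = 3) and 2.08 ± 0.252 FPKM in the DAC minipigs (SD, n = 3), and its log2 fold change was 0.27. TANK passed the threshold in 6 of 13 alternatives. The remaining DEG, BTRC, which encodes the ubiquitin ligase subunit that recognizes phosphorylated IkappaB, had a log2 fold change of 0.43 with an interval from 0.00079 to 0.85 and was named after its values were seen.

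Of 38 ligands and receptors that feed the pathway, 22 were in the table and 11 passed the filter. One of these, IL33, an alarmin of the interleukin 1 family, passed the filter through its DAC samples alone, so its difference is a description, and 0 of the other 10 were DEGs. IL33 was at 0.844, 0.759 and 0.830 FPKM in sham replicates 1, 2 and 3 and at 1.30, 1.40 and 2.32 FPKM in DAC replicates 4, 5 and 6. The DAC values of IL33 were above those of the sham group, and its position overlaps RANBP6. CD40, a receptor of the tumor necrosis factor family, was at 1.87 ± 0.369 FPKM (SD, n = 3) and 2.54 ± 0.433 FPKM (SD, n = 3) without overlap and was no DEG (95% interval from -0.037 to 0.65). The receptors of tumor necrosis factor, TNFRSF1A and TNFRSF1B, had log2 fold changes of -0.10 and -0.079 with intervals on both sides of 0. TLR4 was below 1 FPKM in each minipig, and TNF and IL1B had no row under these symbols, so nothing is said of their levels.

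Of 40 target genes of NF-kappaB, 25 were tested and 5 were DEGs, 2 upregulated and 3 downregulated, or 20% beside 8.51% of all genes. The median log2 fold change of the 25 was 0.066, and in 16 the DAC mean was the higher one. CCL2, a chemokine that draws monocytes, was at 8.32, 7.11 and 8.12 FPKM in sham replicates 1, 2 and 3 and at 19.8, 8.84 and 18.6 FPKM in DAC replicates 4, 5 and 6. DAC replicate 5 was just above the sham range, and DAC replicates 4 and 6 far above it. CCL2 had a log2 fold change of 0.85 with a standard error of 0.28 (limma, adjusted P = 0.522), and it lost the call without sham replicate 2 (0.79), DAC replicate 4 (0.65) or DAC replicate 6 (0.70), and with the variance of each gene on its own. The same 2 minipigs, DAC replicates 4 and 6, had the low NFKBIA values, a likeness picked after the values were seen and not tested. Of the other 4 target genes called, GADD45B, CEBPD and TNIP1 had the same split of the DAC minipigs. They were lower in DAC replicates 4 and 6 than in DAC replicate 5, the direction of NFKBIA and the reverse of CCL2. CEBPD, for example, was at 17.5, 21.5 and 15.8 FPKM in DAC replicates 4, 5 and 6. VCAM1 did not have this split and was highest in DAC replicate 5. These patterns were also seen in the values and not tested.

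VCAM1, an adhesion molecule for leukocytes on activated endothelium, was at 5.99 ± 1.36 FPKM in the sham minipigs (SD, n = 3) and 9.08 ± 1.72 FPKM in the DAC minipigs (SD, n = 3) without overlap. Its log2 fold change was 0.53, and it was no DEG without sham replicate 3 (0.37), DAC replicate 4 (0.51) or DAC replicate 5 (0.42), nor with the variance of each gene on its own. GADD45B, a stress-induced regulator of kinase signaling, was at 9.41, 12.1 and 11.0 FPKM in sham replicates 1, 2 and 3 and at 6.40, 9.08 and 6.69 FPKM in DAC replicates 4, 5 and 6. The groups of GADD45B did not overlap, and DAC replicate 5 was closest to the sham group. GADD45B had a log2 fold change of -0.50 with a standard error of 0.16 (limma, adjusted P = 0.512). CEBPD, a transcription factor of the acute phase response, was at 25.0 ± 2.48 FPKM (SD, n = 3) and 18.3 ± 2.92 FPKM (SD, n = 3), a log2 fold change of -0.44, and was no DEG without sham replicate 3 (-0.37) or DAC replicate 6 (-0.35). The third downregulated target gene was TNIP1, given above. ICAM1 and SOD2, both classical target genes, were no DEGs, with log2 fold changes of 0.15 and -0.099, and were named after their values were seen. IL6 was below 1 FPKM in each minipig.

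**Figure D4:**
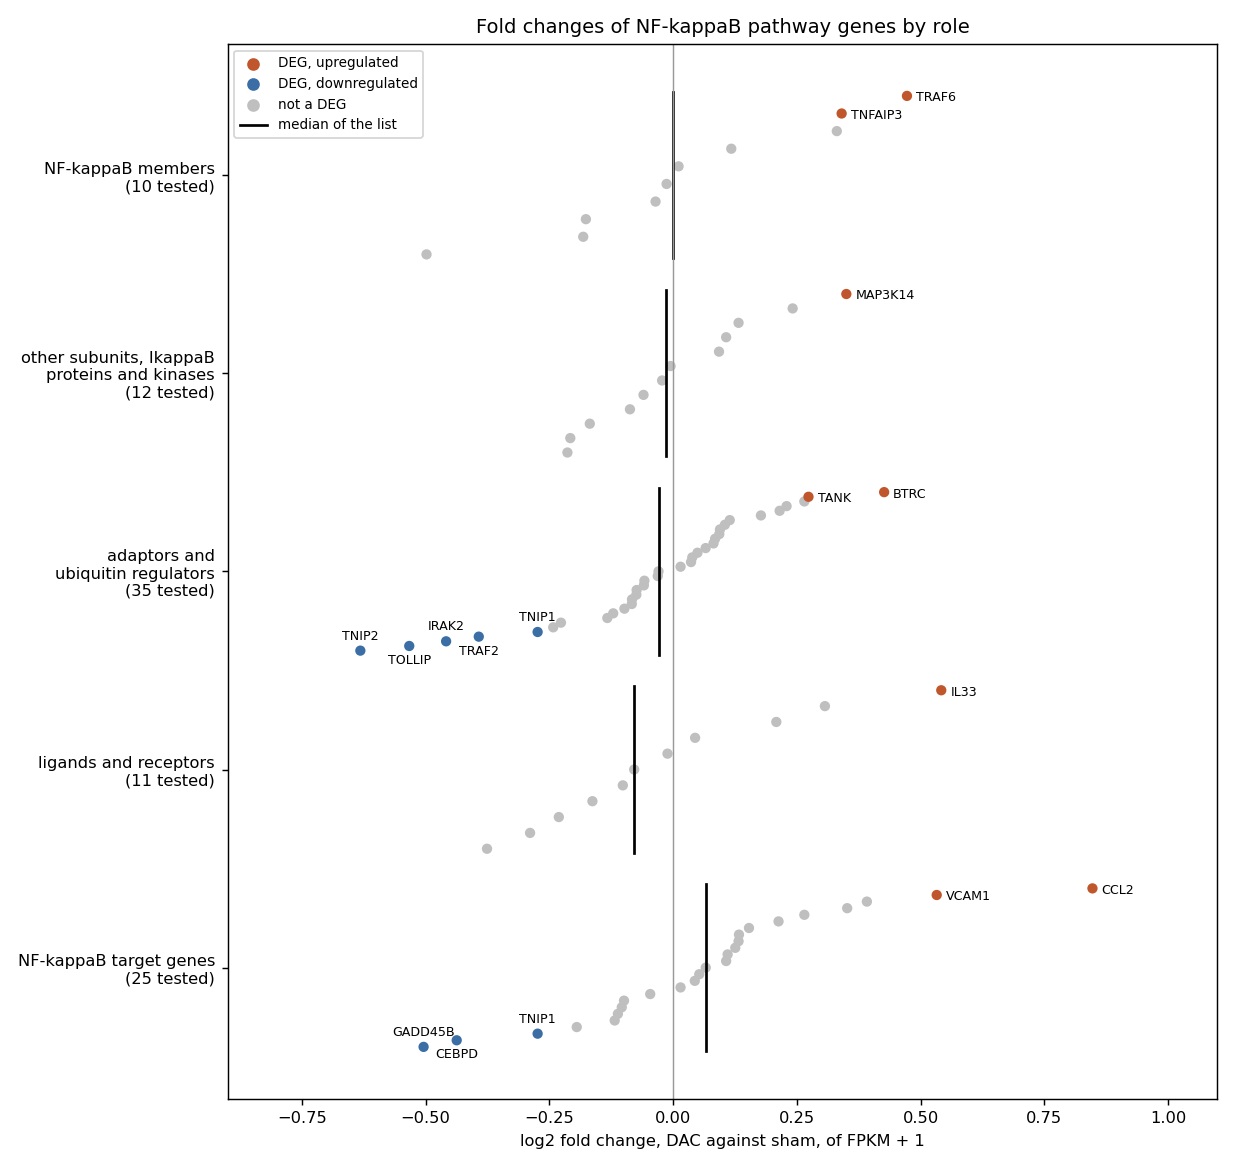
Log2 fold change of DAC against sham on the scale of FPKM + 1 for each tested gene (points), grouped by role, with DEGs in orange (upregulated) and blue (downregulated) and the median of each list as a black line. The medians lie between -0.079 for ligands and receptors and 0.066 for target genes, and TNIP1, BIRC3, TRAF1, NFKBIE and BCL3 each stand in 2 of the lists.

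The genes most like NFKBIA over the 6 minipigs were PSMA7, a proteasome subunit, SEMA4B, a semaphorin, and VAV2. Pearson's r of log2(FPKM + 1) was 0.989 for PSMA7, 0.984 for SEMA4B and 0.981 for VAV2, and 60 genes had an r of at least 0.9. PSMA7 was at 107.9, 114.7 and 114.6 FPKM in sham replicates 1, 2 and 3 and at 91.7, 114.2 and 97.2 FPKM in DAC replicates 4, 5 and 6. As with NFKBIA, DAC replicate 5 was at the sham level and DAC replicates 4 and 6 below it. The 6 points share libraries and groups with each other, and these 3 genes were picked as the highest of 11029, so the values are descriptions.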

How the data were processed

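The deposited table gives FPKM for 6 libraries, which the authors made from paired-end Illumina reads (NEBNext Ultra kit). The submitters' processing notes name HISAT2 and the build susScr11, the same assembly as Sscrofa11.1. The program that made the FPKM and the annotation are not given in the sources used here. The lowest maximum over the genes was 0.50 FPKM, a filter seen in the values. No steps of whole reads were visible, since at most 4 of at least 3459 genes under 2 FPKM shared a ratio between libraries, so the depth is unknown. Symbols came from the table, and 520 rows without a symbol were given one by identifier.

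Tests were run in R 4.3.3 (limma 3.58.1) and tables and plots made in Python 3.11.15. A gene was tested if 3 or more of the 6 samples had at least 1 FPKM, on log2(FPKM + 1), by the moderated two-sided test of limma with a mean-variance trend and no covariates. Each result was recomputed without the filter, with a minimum of 5 FPKM, a pseudocount of 0.1, median scaling, quantile normalization, leaving out the mitochondrially encoded genes, unmoderated variances, sample weights and leaving out each library. The members, lists and alternatives were chosen with earlier results of these data known. Named by rule are the 10 members and up to 5 DEGs of each pathway list by P (or the 2 smallest P). The 3 genes most like NFKBIA and the 2 most abundant markers of each cell type are also named by rule. Other genes are named outside the rule, and not all of them are marked in the text. CD163, CD3E, CD4, TNFRSF1A, TNFRSF1B, TLR4 and IL6 are among those without a mark. The week of collection and the sex come from the study's methods. No batch is named in the labels.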

Additional observations from a re-analysis of the deposited data

How the results depend on the processing

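The number of DEGs over all genes was 939, and it was 579 with a minimum of 5 FPKM and between 600 and 1029 with 1 library left out (600 without sham replicate 1). Of the 10 members, 2 were upregulated DEGs, against 1 of 7 tested with a minimum of 5 FPKM, 1 with the variance of each gene on its own, 1 with sample weights, and between 1 and 2 with 1 library left out (1 without sham replicate 2, sham replicate 3 or DAC replicate 5; TNFAIP3 was the gene lost). The number of downregulated members was 0, against 1 with the variance of each gene on its own (NFKBIB), 1 with sample weights (NFKBIA), and between 0 and 1 with 1 library left out (NFKBIA without DAC replicate 5). Without DAC replicate 4, TRAF6 and IKBKB were the 2 upregulated members. The median over the members moved by less than the spread between minipigs in each alternative.

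The other subunits, IkappaB proteins and kinases had 1 DEG, against 0 with a minimum of 5 FPKM, 2 with mitochondrially encoded genes left out and the rest rescaled, 3 with the variance of each gene on its own, and between 0 and 1 with 1 library left out (0 without sham replicate 3). The adaptors had 7, against 2 with a minimum of 5 FPKM, 4 with quantile normalization, 4 with the variance of each gene on its own, 4 with sample weights, and between 3 and 6 with 1 library left out (3 without sham replicate 1 or DAC replicate 5, and 4 without sham replicate 2, sham replicate 3 or DAC replicate 4). The ligands and receptors had 1 (IL33, which passed the filter through its DAC samples alone), against 2 with no filter, 0 with a minimum of 5 FPKM, 2 with mitochondrially encoded genes left out, and between 1 and 2 with 1 library left out (2 without sham replicate 3 or DAC replicate 6). The target genes had 5, against 2 with the variance of each gene on its own and between 2 and 5 with 1 library left out (2 without sham replicate 3 or DAC replicate 6, and 3 without sham replicate 2 or DAC replicate 4). Fewer genes were tested with a minimum of 5 FPKM, and otherwise the cause was not tested.

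The log2 fold change turned for NFKB1 with sample weights (-0.0091) and without sham replicate 1 (-0.0040), sham replicate 2 (-0.0085) or DAC replicate 4 (-0.040), with 0.068 as the highest value with 1 library left out. It turned for NFKB2 under quantile normalization (0.0058) and when the mitochondrially encoded genes were dropped (0.0057). RELB turned with median scaling (0.0054), without the mitochondrially encoded genes (0.020) and without sham replicate 3 (0.039) or DAC replicate 4 (0.048), and its lowest value with 1 library left out was -0.081. NFKBIZ turned without DAC replicate 4 (-0.091), against 0.24 without DAC replicate 6. The share of downregulated calls over all genes was 61.9%, against 71.5% with a minimum of 5 FPKM, 52.8% with median scaling, 52.9% with quantile normalization, 44.9% without the mitochondrially encoded genes and 50.8% without DAC replicate 5. No paired analysis applied, because the sham and DAC minipigs were different animals that the study assigned to the groups at random. The depth is unknown, so its part in the spread of low genes such as RELB and TNFAIP3 was not tested.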

Other observations

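Ratios between genes of the same library do not depend on how the libraries were scaled to each other. The following 3 ratios of FPKM were chosen after the values of their genes were seen, so they are descriptions with no test. The ratio of TRAF6 to TRAF2 was 1.06, 1.20 and 1.01 in sham replicates 1, 2 and 3 and 1.90, 2.09 and 2.55 in DAC replicates 4, 5 and 6. This separation follows from the choice of a higher and a lower gene, and the position of TRAF2 overlaps 2 other genes. The ratio of IKBKB to CHUK, the catalytic subunits of the IkappaB kinase, was 3.11, 2.88 and 3.27 in sham replicates 1, 2 and 3 and 3.33, 5.99 and 4.78 in DAC replicates 4, 5 and 6. DAC replicate 4 was just above sham replicate 3. The ratio of NFKBIA to RELA, inhibitor to subunit, was 3.29 ± 0.351 (SD, n = 3) in the sham group. In DAC replicates 4, 5 and 6 it was 2.08, 4.38 and 2.01, on both sides of the sham range.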
